A study of Caenorhabditis elegans and Caenorhabditis briggsae
Caenorhabditis elegans with 146 samples.

Results

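The 6 Hox genes of *C. elegans*, *ceh-13*, *lin-39*, *mab-5*, *egl-5*, *nob-1* and *php-3*, were followed through embryonic and larval stages, in hermaphrodite and mixed sex populations, and in worms with defective dosage compensation. They were chosen by gene name from an expression table of 20411 genes in 79 mRNA-seq libraries, and all 6 were found. Expression was given as FPKM, fragments scaled to transcript length and to the number of mapped fragments, which can be compared between genes because it is corrected for length. All 6 genes also had read counts in 6 further L1 libraries, in which a fixed share of *C. briggsae* larvae was added before extraction.

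Hox genes encode homeodomain transcription factors that give cells a position-specific identity along the head-to-tail axis. In the worm, *ceh-13*, the labial type gene, acts in the anterior and in early embryonic morphogenesis, *lin-39* acts in the midbody, where it specifies the vulval precursor cells, and *mab-5* acts in the posterior body, where it directs neuroblast migration. The Abdominal-B type genes act in the tail: *egl-5* in the hermaphrodite and male tail and in several neurons, and *nob-1* and *php-3* in the posterior of the embryo. Hox proteins bind DNA with PBC and Meis type homeodomain cofactors, and Polycomb type proteins keep Hox genes silent outside their domains.

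All 6 genes lie on chromosome III and none on the X chromosome, the target of dosage compensation. By gene order in the RefSeq annotation (WBcel235), *lin-39* and *ceh-13* are immediate neighbours, 37 protein-coding genes separate *ceh-13* from *mab-5*, 1 separates *mab-5* from *egl-5*, and 894 separate *egl-5* from the adjacent pair *php-3* and *nob-1*. The gene identifiers in the table were WBGene00000437 for *ceh-13*, WBGene00003024 for *lin-39*, WBGene00003102 for *mab-5*, WBGene00001174 for *egl-5*, WBGene00003779 for *nob-1* and WBGene00004024 for *php-3*.

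The dosage compensation complex reduces transcription from both X chromosomes of hermaphrodites. The mutant groups were *dpy-27(y56)*, which affects a condensin subunit of the complex, *dpy-21(e428)*, which affects another subunit, *set-4(n4600)*, which affects a histone H4 lysine 20 methyltransferase, and *set-1(tm1821)*, which affects the enzyme that places the first methyl group on that lysine. Homozygous *dpy-27(y56)* embryos came from mothers without the roller marker of the balancer, so they lacked maternal and zygotic product. Early embryos labelled heterozygous came from the balanced strain. Its qC1 balancer is a rearranged chromosome III, the chromosome of *dpy-27* and of the Hox genes. The study does not say how these embryos were selected, so the genotype of each embryo is not known. *set-1(tm1821)* homozygous and balanced heterozygous larvae were sorted by the green fluorescence of the hT2g balancer, which also involves chromosome III. RNAi by feeding against *dpy-27* was set against an empty vector in wild-type worms. Hermaphrodite populations were the wild-type strain N2, whereas mixed sex populations came from BS553, *fog-2(oz40)*, a strain kept as females and males, so sex and strain cannot be told apart. Early embryos were collected straight from bleached young adults. The study describes zygotic transcription as active in them, with the complex starting to localize to the X chromosomes. Comma embryos were early embryos aged in buffer. L1 and L3 larvae were collected after feeding, which lasted longer for L3 larvae. Mixed embryos came from gravid adults without staging. The FPKM table held 23 groups of 2 to 6 libraries, each library from pooled collections of whole animals, and in such bulk samples fewer cells of a type and less RNA per cell cannot be told apart.

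Several libraries stood apart or went against their labels. The libraries labelled N2 L1 replicate 3 and mixed sex L1 replicate 1 held identical values for all 20376 genes with a value, and both were left out. The library labelled *set-4(n4600)* mixed embryo replicate 2 had 52.6 FPKM of *set-4*, where the other 3 of its group had 0.043 to 0.138 FPKM. Conversely, the library labelled *dpy-21(e428)* mixed embryo replicate 3 had 0.223 FPKM of *set-4*, where its group mates had 62.2, 32.7 and 44.4 FPKM. The library labelled mixed sex L3 replicate 1 had 0 FPKM of *her-1*, a gene that acts in males, where the other mixed sex L3 libraries had 4.76 and 8.49 FPKM. In L3 larvae fed *dpy-27* RNAi, *dpy-27* itself was at 115, 15.8, 15.7 and 19.9 FPKM, against 26.0, 18.5, 17.1 and 18.5 FPKM with the vector, so the knockdown was not seen in the RNA of this stage. In mixed embryos *dpy-27* was at 26.0 to 36.9 FPKM after *dpy-27* RNAi and at 64.9 to 135 FPKM with the vector. The study measured the DPY-27 protein and reported a partial knockdown at both stages, weaker in L3 larvae than in embryos. It also reported raised X chromosome expression after RNAi at both stages. Relative depth, read from the steps of low FPKM values, spanned 6.99-fold over the libraries, and 27 libraries had no group mate with a correlation of 0.98 or more over all genes.

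Over the 23 groups, *mab-5* varied most, 43.0-fold between its highest and lowest group means in FPKM. The span was 12.6-fold for *egl-5*, 10.6-fold for *lin-39*, 8.07-fold for *ceh-13*, 5.35-fold for *php-3* and 4.87-fold for *nob-1*. Comma embryos held the highest means of *lin-39* (76.1 FPKM, mixed sex), *mab-5* (41.4 FPKM, N2), *egl-5* (42.4 FPKM, N2) and *php-3* (32.8 FPKM, mixed sex). *ceh-13* was highest in *set-4(n4600)* mixed embryos (124 FPKM) and *nob-1* in *dpy-27(y56)* early embryos (32.0 FPKM). Among the 22 pairs of groups that neighboured each other in a gene's order of means, the libraries overlapped in all 22 pairs for *ceh-13* and *nob-1*, in 21 for *lin-39*, *egl-5* and *php-3* and in 20 for *mab-5*. The clear steps lay below the comma embryos for *mab-5* and *egl-5*, below *dpy-27(y56)* L1 larvae for *mab-5*, between N2 and *dpy-21(e428)* early embryos for *lin-39*, and below N2 L3 larvae for *php-3*. Ordering by mean sets each group beside the one closest to it, so overlap of neighbours was likely beforehand. It does not show which groups differ.

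The first comparison asked how the Hox genes changed as N2 embryos went from the early to the comma stage (n = 3 libraries each). *lin-39*, *mab-5*, *egl-5* and *php-3* rose, *ceh-13* fell by a small amount, and *nob-1* did not pass the test. Thus 5 of 6 genes passed in limma at a Benjamini-Hochberg adjusted p under 0.05, beside 84.6% of all 11755 genes tested, so the share of changed Hox genes was close to that of the whole transcriptome. Of all genes tested, 45.3% were higher and 39.3% lower in comma embryos, and the median log2 ratio was 2.35 over the 6 Hox genes and 0.24 over all genes.

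*ceh-13* was the most abundant Hox gene in early embryos, with 77.7, 89.1 and 58.9 FPKM in comma embryos against 88.4, 124 and 90.4 FPKM in early embryos. The libraries of both stages overlapped at the edge, and the log2 ratio was -0.47 ± 0.17 (SE, limma adjusted p = 0.0339). This call was lost without scaling between libraries (-0.43, limma adjusted p = 0.0887) and without early replicate 2 (-0.36, adjusted p = 0.0843), comma replicate 1 (-0.47, adjusted p = 0.0735) or comma replicate 3 (-0.31, adjusted p = 0.138), with a range of adjusted p from 0.0222 to 0.138 over all alternatives.

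*lin-39* stood at 61.8, 69.0 and 61.3 FPKM in comma embryos, against 9.08, 9.44 and 13.4 FPKM in early embryos. Every comma library lay far above every early library, and the log2 ratio was 2.56 ± 0.20 (SE, limma adjusted p = 1.03e-05). *mab-5* was the rarest Hox gene in early embryos: it had 41.5, 42 and 40.7 FPKM in comma embryos and 0.913, 1.46 and 0.515 FPKM in early embryos. Its log2 ratio, 5.35 ± 0.34 (SE, limma adjusted p = 4.63e-06), was the largest of the 6 genes, and all comma libraries were above all early libraries. Since 0.1 FPKM was added before taking logarithms, this value depends on the pseudocount; with 1 FPKM it was 4.43.

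*egl-5*, the Abdominal-B type gene close to *mab-5*, had 40.4, 47.9 and 39.0 FPKM in comma embryos and 5.80, 5.47 and 6.88 FPKM in early embryos. The groups did not overlap (log2 ratio 2.75 ± 0.18 SE, limma adjusted p = 5.00e-06). The adjacent posterior genes *nob-1* and *php-3* did not change alike. *nob-1* had 16.4, 20.7 and 11.3 FPKM in comma embryos against 17.9, 22.9 and 10.8 FPKM in early embryos, with wide overlap and a log2 ratio of -0.11 (95% interval -0.81 to 0.59). *php-3* had 31.2, 31.2 and 25.4 FPKM in comma embryos against 5.79, 9.31 and 4.71 FPKM in early embryos, with no overlap and a log2 ratio of 2.14 ± 0.25 (SE, limma adjusted p = 9.51e-05). Early embryos thus held more *nob-1* than *php-3* FPKM and comma embryos more *php-3* than *nob-1* FPKM, in each of the N2 libraries.

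The mixed sex population passed the same stages (n = 3 each), and the same 5 genes passed the test, beside 80.8% of 11459 genes, 42.8% higher and 38% lower. *lin-39* had 79.6, 73.1 and 75.6 FPKM in comma embryos and 19.5, 19 and 13.9 FPKM in early embryos. *mab-5* had 42.3, 39.3 and 34.0 FPKM in comma embryos and 7.21, 5.99 and 2.78 FPKM in early embryos. Both genes were well separated between the stages, with log2 ratios of 2.13 ± 0.14 for *lin-39* and 2.92 ± 0.32 for *mab-5* (SE, limma adjusted p = 6.25e-06 and 8.25e-05). *egl-5* had 43.2, 39.1 and 30.8 FPKM in comma embryos and 4.47, 3.94 and 4.17 FPKM in early embryos, a log2 ratio of 3.12 ± 0.18 (SE, limma adjusted p = 3.53e-06). *php-3* had 30.8, 31.0 and 36.5 FPKM in comma embryos and 11.5, 14.2 and 12.5 FPKM in early embryos, again without overlap (log2 ratio 1.35 ± 0.15 SE, limma adjusted p = 8.05e-05).

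*ceh-13* in the mixed sex population had 71.9, 90.8 and 81.1 FPKM in comma embryos and 131, 124 and 88.2 FPKM in early embryos, which overlapped (log2 ratio -0.48 ± 0.15 SE, limma adjusted p = 0.0169). Without comma replicate 1 this value was -0.38 (limma adjusted p = 0.0834, range over all alternatives 0.000709 to 0.0834). *nob-1* had 19.2, 25.8 and 19.6 FPKM in comma embryos and 30.2, 29.1 and 21.1 FPKM in early embryos. Its log2 ratio of -0.32 ± 0.17 (SE) missed the threshold (limma adjusted p = 0.115), and passed it without early replicate 3 (-0.54, adjusted p = 0.0121, range over all alternatives 0.0121 to 0.337).

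The change itself was compared between N2 and the mixed sex population with an interaction term. Of the 6 genes only *mab-5* passed, with a rise larger in N2 by 2.44 ± 0.50 on the log2 scale (SE, limma adjusted p = 0.0127), beside 7.8% of 11656 genes, with 6.05% positive. Its comma levels were 40.7 to 42 FPKM in N2 and 34.0 to 42.3 FPKM in mixed sex embryos, so the difference of the changes lay in the early embryos. *php-3* differed by 0.80 ± 0.30 (SE, limma adjusted p = 0.127) and passed only without N2 early replicate 2 (1.07, adjusted p = 0.0178, range over all alternatives 0.0178 to 0.258).

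Genes around the Hox genes moved over the same stages in N2. Of 5 cofactor genes tested, 4 were higher and 1 lower in comma embryos, among them *ceh-60*, of the PBC class, with a log2 ratio of 4.97. Of 11 Polycomb and trithorax type regulators, 2 were higher and 8 lower. Of 7 patterning genes that act upstream of Hox genes, 3 were higher and 1 lower, with *bar-1*, a beta-catenin, at 6.11. Of 8 genes known to act downstream of Hox genes, 7 were higher and 0 lower, with *hlh-8*, a Twist type factor of the mesoderm, at 7.44. The median log2 ratios were 1.09 for the cofactors, -0.71 for the regulators, 0.68 for the upstream genes and 3.51 for the downstream genes, against 0.24 over all genes. In the mixed sex population the counts were 4 higher and 1 lower of 5, 3 higher and 5 lower of 11, 4 higher and 1 lower of 7, and 7 higher and 0 lower of 8 genes, in the same order of lists.

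**Figure D1:**
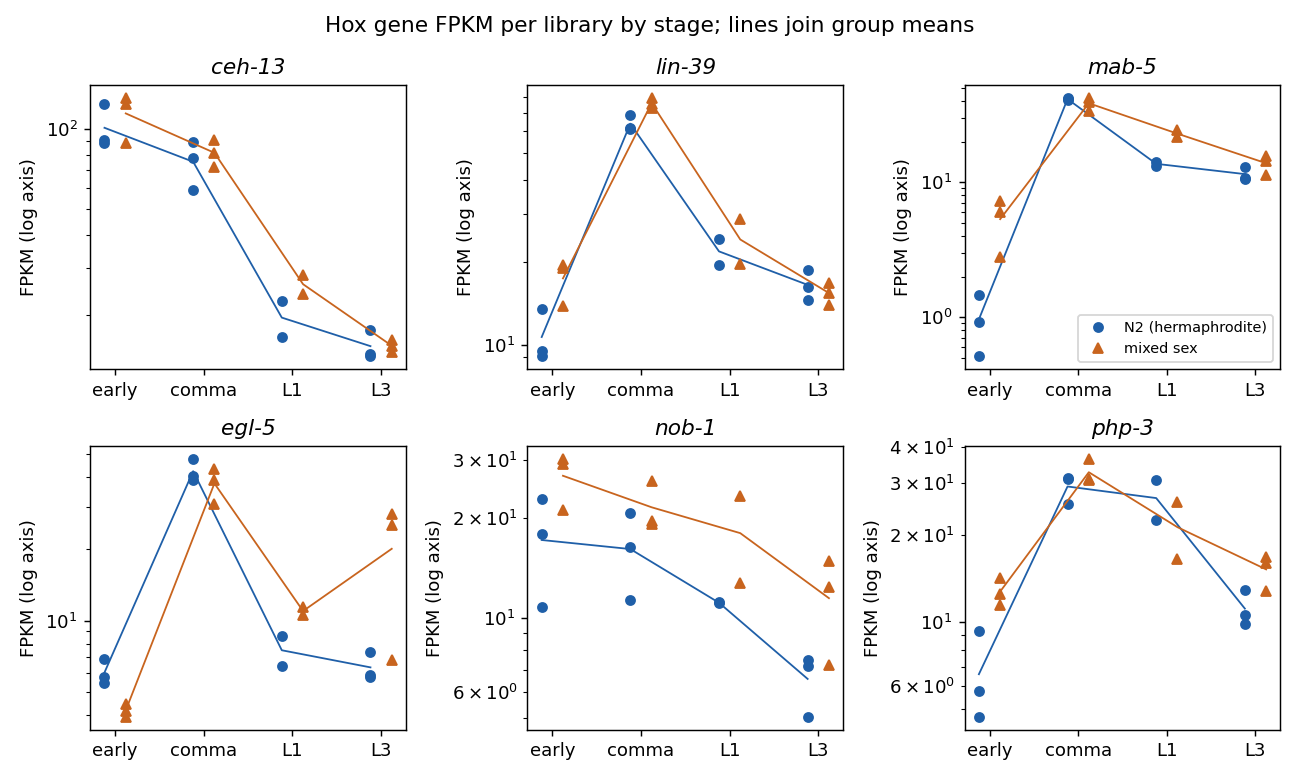
FPKM (log axis) of the 6 Hox genes in every library of N2 (circles) and of the mixed sex population (triangles) at the early embryo, comma embryo, L1 and L3 stages, with lines through the group means. *lin-39*, *mab-5*, *egl-5* and *php-3* were higher in comma than in early embryos, *mab-5* was lower in early embryos of N2 (0.515 to 1.46 FPKM) than in those of the mixed sex population (2.78 to 7.21 FPKM), and *egl-5* in mixed sex L3 larvae split into 6.83 FPKM and 25.2 to 28.0 FPKM.

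From the comma stage to L1 larvae, 4 of the 6 genes fell in N2 (L1 n = 2, comma n = 3), beside 49.8% of 14138 genes, and 24.3% of all genes were lower. *egl-5* had 8.59 and 6.41 FPKM in L1 larvae against 39.0 to 47.9 FPKM in comma embryos, the largest fall at -2.42 ± 0.24 on the log2 scale (SE, limma adjusted p = 0.00120). *ceh-13* had 22.6 and 16.6 FPKM in L1 larvae against 58.9 to 89.1 FPKM in comma embryos (log2 ratio -1.86 ± 0.24 SE, limma adjusted p = 0.00281). *lin-39* had 24.3 and 19.5 FPKM in L1 larvae against 61.3 to 69.0 FPKM in comma embryos, and *mab-5* had 13.3 and 14.1 FPKM against 40.7 to 42 FPKM. None of these 4 genes overlapped between the stages, and the log2 ratios of *lin-39* and *mab-5* were -1.48 ± 0.19 and -1.51 ± 0.18 (SE, limma adjusted p = 0.00257 and 0.00214). *nob-1* (11.2 and 11.1 FPKM in L1 larvae, log2 ratio -0.42, 95% interval -1.18 to 0.35) and *php-3* (30.9 and 22.5 FPKM, log2 ratio -0.07, 95% interval -0.63 to 0.49) did not pass the test.

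In the mixed sex population (L1 n = 2, comma n = 3) the same 4 genes passed, beside 62.2% of 13122 genes, with 29.9% lower. *egl-5* had 11.4 and 10.5 FPKM in L1 larvae, *ceh-13* 28.2 and 24.1 FPKM, and *lin-39* 19.6 and 28.8 FPKM, with log2 ratios against comma embryos of -1.55 ± 0.21, -1.42 ± 0.18 and -1.47 ± 0.16 (SE, limma adjusted p = 0.00178, 0.00139 and 0.000958). *mab-5* had 21.6 and 24.3 FPKM in L1 larvae against 34.0 to 42.3 FPKM in comma embryos, a fall of 0.53 ± 0.16 on the log2 scale (SE, limma adjusted p = 0.0272). That call did not hold without comma replicate 1 (-0.48, limma adjusted p = 0.0890), comma replicate 2 (-0.55, adjusted p = 0.0669), L1 replicate 2 (-0.45, adjusted p = 0.0825) or L1 replicate 3 (-0.55, adjusted p = 0.0507). *nob-1* had 12.8 and 23.2 FPKM and *php-3* 16.4 and 26.0 FPKM in L1 larvae, and neither passed; *php-3* did so without L1 replicate 3 (-0.71, limma adjusted p = 0.0361). The difference of the falls between N2 and mixed sex was -0.88 ± 0.22 for *mab-5* and -0.76 ± 0.31 for *egl-5* (SE, limma adjusted p = 0.155 and 0.366), and 0 of 6 genes passed this interaction test in limma, 2 of 6 at an unadjusted p under 0.05, beside 0.405% of 13582 genes at the adjusted and 12.5% at the unadjusted threshold.

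Between L1 and L3 larvae 1 Hox gene changed in N2, and in the mixed sex population the *egl-5* result turned on 1 library. In N2 (L3 n = 3, L1 n = 2) *php-3* alone passed, beside 29.4% of 13943 genes, with 13.4% lower: it had 10.6, 9.84 and 12.9 FPKM in L3 larvae and 30.9 and 22.5 FPKM in L1 larvae (log2 ratio -1.01 ± 0.24 SE, limma adjusted p = 0.0353). The groups did not overlap, but the call was lost without L1 replicate 1 (-0.77, limma adjusted p = 0.136), L1 replicate 2 (-1.21, adjusted p = 0.0509), L3 replicate 1 (-0.94, adjusted p = 0.124) or L3 replicate 2 (-0.90, adjusted p = 0.119). The other 5 genes had log2 ratios of -0.54 to 0.01 in N2, although *lin-39*, *mab-5* and *nob-1* FPKM were also lower in every L3 than in every L1 library. Before scaling the median log2 ratio of all genes was -0.22, and how many of them separated likewise was not counted. The L3 levels of these 5 Hox genes were 14.1 to 17.5 FPKM for *ceh-13*, 14.6 to 18.7 FPKM for *lin-39*, 10.6 to 13.1 FPKM for *mab-5*, 5.77 to 7.39 FPKM for *egl-5* and 5.05 to 7.46 FPKM for *nob-1*.

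In the mixed sex population (L3 n = 3, L1 n = 2) 0 of 6 genes passed in limma and 0 at an unadjusted p under 0.05, beside 33.4% of 13253 genes. *egl-5* had 6.83, 28.0 and 25.2 FPKM in L3 larvae against 11.4 and 10.5 FPKM in L1 larvae. The library with the low value, replicate 1, is the library without *her-1*, and leaving it out gave a log2 ratio of 1.61 ± 0.19 (SE, limma adjusted p = 0.0139, range over all alternatives 0.0139 to 0.562). *ceh-13* passed without L1 replicate 3 (-0.62, limma adjusted p = 0.0406), and *ceh-13* and *mab-5* passed without scaling between libraries (-0.76, adjusted p = 0.0202, and -0.73, adjusted p = 0.0418). The L1 to L3 change did not pass the interaction test between the populations for any of the 6 genes in limma, and for 1 at an unadjusted p under 0.05, beside 0.804% of 13551 genes at the adjusted and 15% at the unadjusted threshold.

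N2 was next set against the mixed sex population at each stage. In early embryos (n = 3 each) *mab-5* was lower in N2, with 0.913, 1.46 and 0.515 FPKM against 7.21, 5.99 and 2.78 FPKM in mixed sex embryos. No library of the groups overlapped, and the log2 ratio was -2.25 ± 0.48 (SE, limma adjusted p = 0.0221), the only call among the 6 genes, beside 15.6% of 9576 genes, with 8.73% lower. *lin-39* (-0.61 ± 0.20), *php-3* (-0.89 ± 0.27) and *egl-5* (0.61 ± 0.21) also did not overlap between the groups but missed the threshold (SE, limma adjusted p = 0.0746, 0.0611 and 0.0868). Overlap was read on FPKM before scaling, on which the median log2 ratio of all genes was -0.10. How many of all genes separated these groups was not counted. *ceh-13* and *nob-1* overlapped, with log2 ratios of -0.08 and -0.59. The *mab-5* call was lost without N2 replicate 1 (-2.27, limma adjusted p = 0.0796), mixed sex replicate 1 (-2.01, adjusted p = 0.0928) or mixed sex replicate 2 (-2.14, adjusted p = 0.0827), whereas *lin-39* passed without N2 replicate 3 (-0.78, adjusted p = 0.0371) or mixed sex replicate 3 (-0.72, adjusted p = 0.0433) and *php-3* without N2 replicate 2 (-1.18, adjusted p = 0.0259) or without scaling (-0.99, adjusted p = 0.0455).

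Sums of marker genes differed between the same early embryos. The summed level of 8 body muscle genes was 11 to 23.5 FPKM in N2 and 71.8 to 102 FPKM in mixed sex embryos, and that of 7 epidermal collagen genes 125 to 192 FPKM in N2 and 552 to 992 FPKM in mixed sex embryos. The summed level of 9 maternal oocyte genes was 4099 to 6172 FPKM in N2 and 4602 to 5119 FPKM in mixed sex embryos. Neuron genes were at 393 to 421 FPKM in N2 and 334 to 386 FPKM in mixed sex embryos, and early blastomere genes at 189 to 242 and 145 to 166 FPKM. Intestine genes were at 30.9 to 47.2 FPKM in N2 and 50.7 to 65.1 FPKM in mixed sex embryos, and germline genes at 534 to 820 and 620 to 713.5 FPKM. The muscle, epidermal and intestine sums separated the populations in the direction of *mab-5*. The neuron and early blastomere sums separated them in the other direction, and the maternal and germline sums overlapped. The part of these sums in the *mab-5* difference was not tested. Of 4 cofactor genes tested 1 was higher and 1 lower in N2, of 11 Polycomb and trithorax type regulators 3 were higher and 0 lower, of 5 upstream genes none passed, and of 6 downstream genes 1 was higher and 1 lower. *egl-1*, a cell death activator downstream of Hox genes, was lower in N2 (log2 ratio -2.63, limma adjusted p = 0.0184). Of the PBC class cofactors, *ceh-20* was lower (-1.15, adjusted p = 0.00945) and *ceh-40* higher in N2 (0.72, adjusted p = 0.0160).

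In comma embryos and L1 larvae no Hox gene passed the test between N2 and the mixed sex population. In comma embryos 0 of 6 genes passed in limma and 0 at an unadjusted p under 0.05, beside 0.0683% of 11709 genes, and the log2 ratios were -0.38 to 0.24. *lin-39* did not overlap, with 61.8, 69.0 and 61.3 FPKM in N2 and 79.6, 73.1 and 75.6 FPKM in mixed sex comma embryos. In L1 larvae 0 of 6 passed in limma and 0 at an unadjusted p under 0.05, beside 0% of 13861 genes, with log2 ratios of -0.67 to 0.42. Both N2 libraries (n = 2 each) were below both mixed sex libraries in *mab-5* (13.3 and 14.1 FPKM in N2, 21.6 and 24.3 FPKM in mixed sex larvae), *ceh-13*, *egl-5* and *nob-1*. How many of all genes separated likewise was not counted at either stage. Neither of these comparisons shows that the levels were equal, since the 95% interval for *egl-5* in L1 larvae ran from -1.53 to 0.55.

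In L3 larvae (n = 3 each) *egl-5* had 5.77, 5.91 and 7.39 FPKM in N2 against 6.83, 28.0 and 25.2 FPKM in the mixed sex population. *egl-5* is needed for development of the male tail. The groups overlapped through mixed sex replicate 1 alone, and the log2 ratio was -1.42 ± 0.54 (SE, limma adjusted p = 0.314). Of the 6 genes 0 passed in limma and 3 had an unadjusted p under 0.05, *egl-5*, *nob-1* (-0.77) and *php-3* (-0.46), beside 0.0157% of 12709 genes at the adjusted and 14.8% at the unadjusted threshold. Without mixed sex replicate 1 *egl-5* passed with -2.07 ± 0.19 (SE, limma adjusted p = 0.0180, range over all alternatives 0.0180 to 0.712). In that library *her-1* was at 0 FPKM, as in the N2 libraries compared here, and *nob-1* (7.21 FPKM) and *php-3* (12.7 FPKM) were likewise lower than in the other mixed sex L3 libraries (14.8 and 12.4 FPKM of *nob-1*, 16.7 and 16 FPKM of *php-3*).

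**Figure D2:**
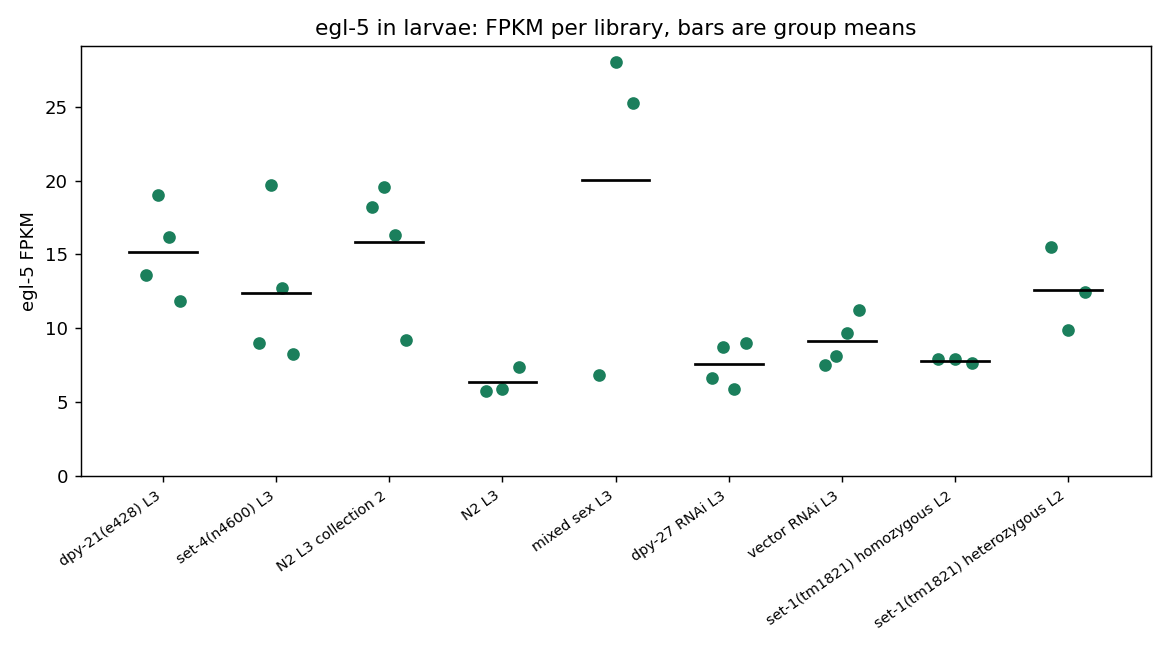
*egl-5* FPKM in every L3 library and in the *set-1(tm1821)* larvae, with bars at the group means. The libraries of the second N2 collection (9.18 to 19.5 FPKM) lay above the first N2 L3 libraries (5.77 to 7.39 FPKM), and 1 of 3 mixed sex libraries lay with the first N2 libraries.

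The largest set of Hox gene differences between genotypes was in *dpy-27(y56)* early embryos (n = 3) against N2 early embryos (n = 3). *lin-39*, *mab-5*, *nob-1* and *php-3* were higher in the mutant, and *ceh-13* and *egl-5* did not pass the test. These 4 calls of 6 stood beside 48% of 10790 genes called, with 26.2% of all genes higher in the mutant. The study's own DESeq analysis called no gene in these embryos at an adjusted p under 0.05. Why the results differ was not tested. The median log2 ratio was 0.88 over the 6 genes and -0.04 over all genes.

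*mab-5* had 6.93, 9.26 and 11.8 FPKM in *dpy-27(y56)* embryos against 0.913, 1.46 and 0.515 FPKM in N2 embryos. The lowest mutant library exceeded the highest N2 library, and the log2 ratio was 3.08 ± 0.45 (SE, limma adjusted p = 0.00147). *lin-39* had 20.0, 24.5 and 23.2 FPKM in *dpy-27(y56)* embryos against 9.08, 9.44 and 13.4 FPKM in N2 embryos, also without overlap (log2 ratio 0.95 ± 0.22 SE, limma adjusted p = 0.00920). These 2 calls held in every alternative that was run. *nob-1* had 33.5, 29.7 and 32.7 FPKM in *dpy-27(y56)* embryos against 17.9, 22.9 and 10.8 FPKM in N2 embryos, and *php-3* had 16.7, 22.8 and 13.5 FPKM against 5.79, 9.31 and 4.71 FPKM.

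The posterior pair did not overlap between the genotypes either, with log2 ratios of 0.81 ± 0.27 for *nob-1* and 1.29 ± 0.32 for *php-3* (SE, limma adjusted p = 0.0389 and 0.0139). Overlap was read on FPKM before scaling, and how many of all genes separated these genotypes was not counted. The *nob-1* call was lost without the filter on low values (0.75, limma adjusted p = 0.0706) and without N2 replicate 1 (0.86, adjusted p = 0.0791), N2 replicate 3 (0.50, adjusted p = 0.0642), *dpy-27(y56)* replicate 1 (0.76, adjusted p = 0.103) or *dpy-27(y56)* replicate 2 (0.86, adjusted p = 0.0791). The *php-3* call was lost without N2 replicate 1 (1.21, limma adjusted p = 0.0502) or *dpy-27(y56)* replicate 2 (1.08, adjusted p = 0.0528). *ceh-13* (88.3, 92.3 and 101 FPKM in the mutant, log2 ratio -0.23, 95% interval -0.60 to 0.13) and *egl-5* (5.04, 7.51 and 4.33 FPKM, log2 ratio -0.28, 95% interval -0.98 to 0.43) overlapped with N2.

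Sums of marker genes differed between these embryos in both directions. The summed body muscle level was 515 to 1001 FPKM in *dpy-27(y56)* embryos and 11 to 23.5 FPKM in N2 embryos, the epidermal sum 2238 to 3404 FPKM in the mutant and 125 to 192 FPKM in N2, and the maternal oocyte sum 2357 to 3131 FPKM in the mutant and 4099 to 6172 FPKM in N2. The intestine sum was also higher, 132 to 202 FPKM in the mutant and 30.9 to 47.2 FPKM in N2. Lower sums were those of early blastomere genes (111 to 129 and 189 to 242 FPKM) and germline genes (314 to 410 and 534 to 820 FPKM). The neuron sum overlapped (350 to 394.5 and 392.6 to 421 FPKM). In N2 comma embryos the body muscle sum was 2761 to 4497 FPKM. The part of these differences in embryo composition in the Hox gene values was not tested. Relative depth was 0.193 to 0.57 in the mutant libraries, on a scale on which the N2 libraries were at 0.785 to 1.01, and *dpy-27(y56)* replicate 3 was the shallowest of all 79 libraries.

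The lists around the Hox genes showed 2 higher and 0 lower of 4 cofactors. Of 11 Polycomb and trithorax type regulators 0 were higher and 4 lower. Of 7 upstream genes 2 were higher and 1 lower, with a log2 ratio of 4.10 for *bar-1*. Of 7 downstream genes 6 were higher and 1 lower, with 4.86 for *hlh-8* and 2.90 for *egl-1*. The median log2 ratios of the lists were 0.73, -0.10, 0.54 and 1.65, in the same order.

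*dpy-27(y56)* early embryos labelled heterozygous (n = 2) were the closer control in strain background, although the genotype of each embryo is not known. Against them, 0 of 6 genes passed in homozygous embryos in limma and 0 at an unadjusted p under 0.05, beside 0% of 11147 genes. *mab-5* had 6.93, 9.26 and 11.8 FPKM in homozygous and 7.42 and 3.60 FPKM in heterozygous embryos, and *lin-39* had 20.0, 24.5 and 23.2 FPKM in homozygous and 18.4 and 8.89 FPKM in heterozygous embryos. The log2 ratios were 0.55 for both, with 95% intervals of -0.55 to 1.65 for *mab-5* and -0.26 to 1.36 for *lin-39*, so neither a difference of the size seen against N2 in *lin-39* nor its absence was shown. *nob-1* had 29.3 and 15.6 FPKM and *php-3* 18.7 and 7.95 FPKM in heterozygous embryos. The heterozygous libraries differed from each other in every gene of the set, replicate 2 having the lower value each time, including 36.8 FPKM of *ceh-13* where replicate 1 had 100 FPKM. Their body muscle sums were 508 and 2085 FPKM and their epidermal sums 1714 and 10070 FPKM, in replicates 1 and 2.

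Set against N2, the heterozygous embryos had higher *mab-5* (log2 ratio 2.45 ± 0.55 SE, limma adjusted p = 0.0349), the only call of 6, beside 14.9% of 10463 genes, with 12.7% higher. The 2 heterozygous libraries lay above all 3 N2 libraries, but how many of all genes did so was not counted. The call was lost without the filter on low values (2.36, limma adjusted p = 0.0512) and without N2 replicate 1 (2.45, limma adjusted p = 0.125), replicate 2 (2.77, adjusted p = 0.0782) or replicate 3 (2.10, adjusted p = 0.121), and without heterozygous replicate 2 (2.77, adjusted p = 0.0562); without heterozygous replicate 1, *ceh-13* passed as well (-1.16, adjusted p = 0.0251). Since homozygous and heterozygous embryos were compared with the same N2 libraries, these 2 contrasts share their control.

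In *dpy-21(e428)* early embryos (n = 3) 3 of the Hox genes lay below the N2 level in every library, and none passed the test without a replicate block. The overlap was read on FPKM before scaling, on which the median log2 ratio of all genes was -0.26. How many of all genes lay below N2 likewise was not counted. *ceh-13* had 35.8, 49.9 and 57.4 FPKM in *dpy-21(e428)* embryos against 88.4, 124 and 90.4 FPKM in N2 embryos. All 3 mutant libraries were below all N2 libraries, and the log2 ratio of -0.82 ± 0.25 missed the threshold (SE, limma adjusted p = 0.0796). With the replicate number as a block, which is the fit that applies because same-numbered libraries of these groups deviated together, the adjusted p in limma was 0.0418 (range over all alternatives 0.0279 to 0.235), so 1 of 6 genes then passed, beside 10.9% of 9636 genes under the block. In limma without the block 0 of 6 passed and 1 had an unadjusted p under 0.05, beside 6.02% of 9636 genes at the adjusted and 33% at the unadjusted threshold. The study, by its own analysis, described most X and autosomal genes as significantly higher in these embryos. Why the results differ was not tested.

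*lin-39* (6.16, 8.54 and 6.81 FPKM) and *egl-5* (3.06, 2.72 and 4.36 FPKM) in *dpy-21(e428)* embryos were also below all N2 libraries, with log2 ratios of -0.29 ± 0.30 and -0.58 ± 0.28 (SE, limma adjusted p = 0.520 and 0.184). *mab-5* had 3.56, 4.20 and 1.01 FPKM in the mutant and overlapped with N2 through replicate 3 (log2 ratio 1.64 ± 0.73 SE, limma adjusted p = 0.166). Replicate 3 also had the lowest body muscle sum of the mutant libraries, 53.5 FPKM, where replicates 1 and 2 had 768 and 421 FPKM. Without it *mab-5* (2.32, limma adjusted p = 0.00644), *ceh-13* (-0.90, adjusted p = 0.0279) and *egl-5* (-0.71, adjusted p = 0.0437) passed. The share of all genes called without this library was not counted, so these calls cannot be set against it. *nob-1* (9.93 to 13.9 FPKM) and *php-3* (4.25 to 7.81 FPKM) overlapped with N2. Marker sums also differed from N2 without overlap: maternal oocyte genes were at 2184 to 3849 FPKM in *dpy-21(e428)* and 4099 to 6172 FPKM in N2 embryos, 8 early blastomere genes at 78.6 to 120 and 189 to 242 FPKM, and 8 neuron genes at 195 to 311 and 393 to 421 FPKM. Body muscle genes were at 53.5 to 768 FPKM in *dpy-21(e428)* and 11 to 23.5 FPKM in N2 embryos, and epidermal genes at 278 to 4473 and 125 to 192 FPKM. The part of these differences in the Hox gene values was not tested.

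The mutants were also compared with each other. *dpy-27(y56)* embryos had more *lin-39* (20.0, 24.5 and 23.2 FPKM) than *dpy-21(e428)* embryos (6.16, 8.54 and 6.81 FPKM), with a log2 ratio of 1.18 ± 0.29 (SE, limma adjusted p = 0.0443). *nob-1* had 33.5, 29.7 and 32.7 FPKM in *dpy-27(y56)* embryos and 13.9, 10.7 and 9.93 FPKM in *dpy-21(e428)* embryos (log2 ratio 1.01 ± 0.25 SE, limma adjusted p = 0.0427). Of the 6 genes 2 passed, beside 12.5% of 10701 genes, with 3.86% higher. In unscaled FPKM every *dpy-27(y56)* library was above every *dpy-21(e428)* library in 5 of the 6 genes, *egl-5* being the exception. How many of all genes separated likewise was not counted. The scaling mattered here: without it the median log2 ratio of all genes was 0.56 rather than 0.10, and 4 of 6 genes passed, beside 11.1% of all genes. The *lin-39* and *nob-1* calls were both lost without the filter on low values (1.14, limma adjusted p = 0.0732, and 0.97, adjusted p = 0.0693), without *dpy-21(e428)* replicate 1 (1.06, limma adjusted p = 0.116, and 1.14, adjusted p = 0.0784) or replicate 2 (1.41, adjusted p = 0.0603, and 1.07, adjusted p = 0.0938), and without *dpy-27(y56)* replicate 1 (1.24, adjusted p = 0.117, and 0.95, adjusted p = 0.143), replicate 2 (1.13, adjusted p = 0.181, and 1.07, adjusted p = 0.144) or replicate 3 (1.14, adjusted p = 0.109, and 0.98, adjusted p = 0.102).

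**Figure D3:**
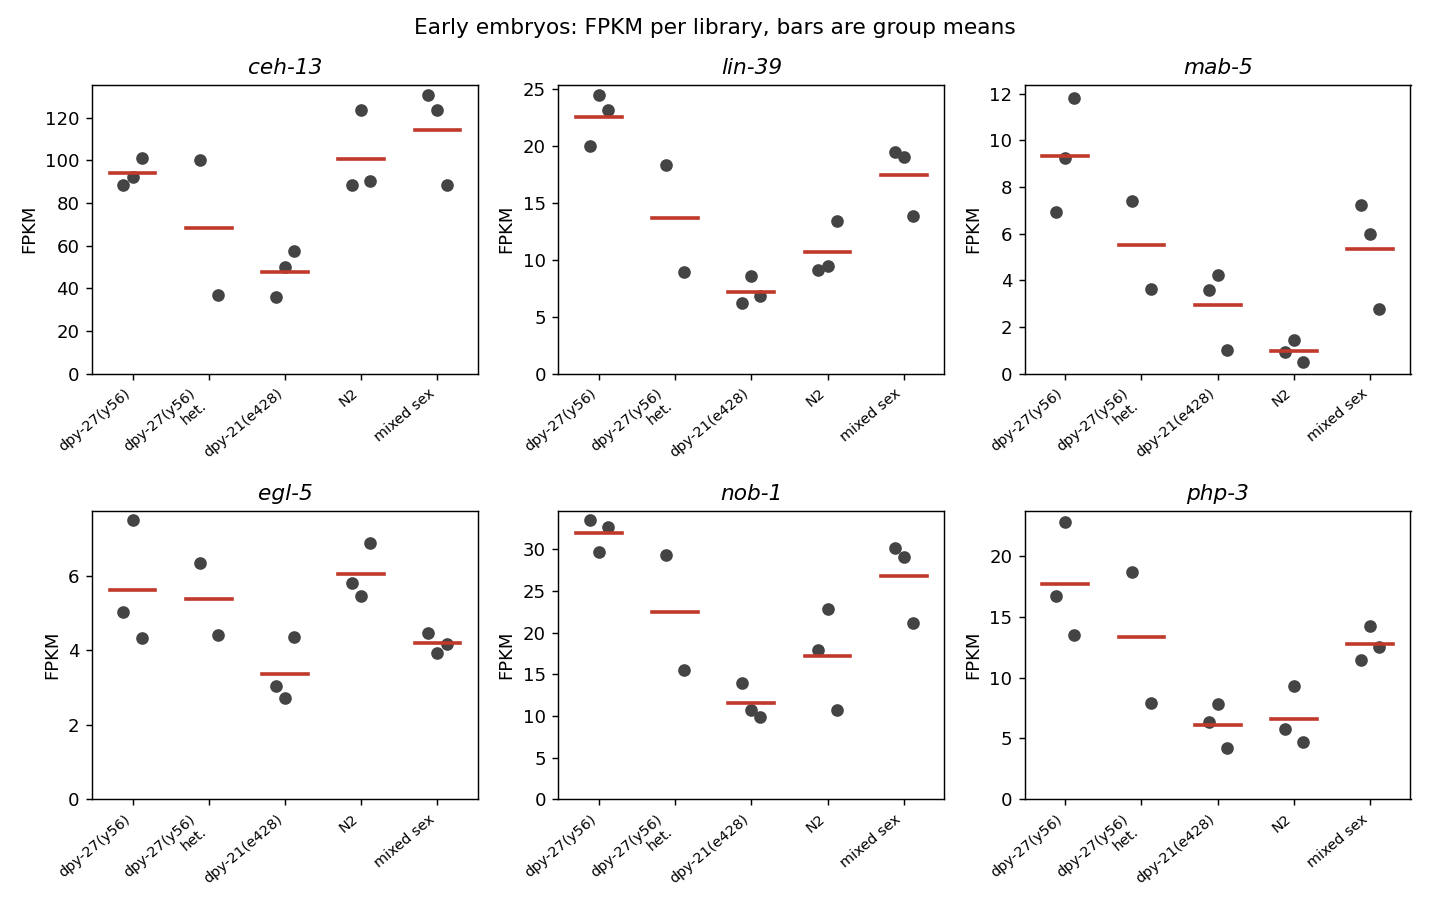
FPKM of the 6 Hox genes in every early embryo library of *dpy-27(y56)*, heterozygous *dpy-27(y56)*, *dpy-21(e428)*, N2 and the mixed sex population, with bars at the group means. In *mab-5* the *dpy-27(y56)* libraries (6.93 to 11.8 FPKM) lay above N2 (0.515 to 1.46 FPKM), which in turn lay below the mixed sex libraries (2.78 to 7.21 FPKM), and in *ceh-13* the *dpy-21(e428)* libraries (35.8 to 57.4 FPKM) lay below N2 (88.4 to 124 FPKM).

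In L1 larvae the *dpy-27(y56)* mutant (n = 3) differed from N2 (n = 2) in 0 of 6 genes in limma and in 1 at an unadjusted p under 0.05, beside 0.34% of 14108 genes at the adjusted and 15.3% at the unadjusted threshold. That gene, *php-3*, had 24.9, 17.5 and 14.3 FPKM in the mutant against 30.9 and 22.5 FPKM in N2, which overlapped (log2 ratio -0.70 ± 0.29 SE, limma adjusted p = 0.316). *mab-5* had 21.1, 17.3 and 16.8 FPKM in mutant L1 larvae and 13.3 and 14.1 FPKM in N2, with no overlap but a log2 ratio of only 0.24 ± 0.24 after scaling (SE, limma adjusted p = 0.660). The number of all genes without overlap between these larvae was not counted. *egl-5* was the most scattered, with 12.7, 6.24 and 3.22 FPKM in the mutant against 8.59 and 6.41 FPKM in N2 (95% interval of the log2 ratio -1.74 to 0.94). *ceh-13* (21.6 to 44.2 FPKM), *lin-39* (23.0 to 32.7 FPKM) and *nob-1* (8.62 to 16.6 FPKM) overlapped with N2.

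After knockdown of *dpy-27* by RNAi in mixed embryos, the RNAi and vector libraries overlapped in each of the 6 Hox genes (RNAi n = 4, vector n = 6). Of the 6 genes 0 passed in limma and 0 at an unadjusted p under 0.05, beside 0% of 12552 genes. *egl-5* had 17.5, 23.7, 8.94 and 13.4 FPKM after *dpy-27* RNAi and 2.79 FPKM at the lowest, 16.3 FPKM at the median and 28.5 FPKM at the highest with the vector. *mab-5* had 22.8, 29.2, 10.9 and 11 FPKM after RNAi and 4.19, 20.5 and 28.1 FPKM at the lowest, median and highest with the vector. The RNAi values lay inside the range of the vector libraries in *egl-5* and overlapped with it in *mab-5*, and vector replicate 5 was the lowest of all.

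Body muscle markers varied widely among the unstaged embryo libraries of each group. The body muscle sum was 3481, 5819, 682 and 1982 FPKM in RNAi replicates 1 to 4 and 3800, 5518, 1003, 1668, 147 and 698 FPKM in vector replicates 1 to 6, and vector replicate 5 correlated with its group mates at 0.815 to 0.963. Same-numbered RNAi and vector libraries moved together, with correlations of 0.52 to 0.91 between their deviations over all genes, and the plot of mixed embryos by replicate number shows the same in *lin-39*, *egl-5* and *php-3*. *egl-5* was lower after RNAi in 4 of 4 numbered pairs and *lin-39* in 4 of 4, but the share of all genes lower in every pair was not counted. With the replicate number as a block the log2 ratio of *egl-5* was -0.35 ± 0.11 and that of *lin-39* -0.17 ± 0.10 (SE, limma adjusted p = 0.169 and 0.344), and 0 of 6 genes passed. The share of all genes called with this block was not counted either. The other genes had blocked log2 ratios of -0.38 for *mab-5*, -0.08 for *php-3*, -0.04 for *ceh-13* and 0.13 for *nob-1*.

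**Figure D4:**
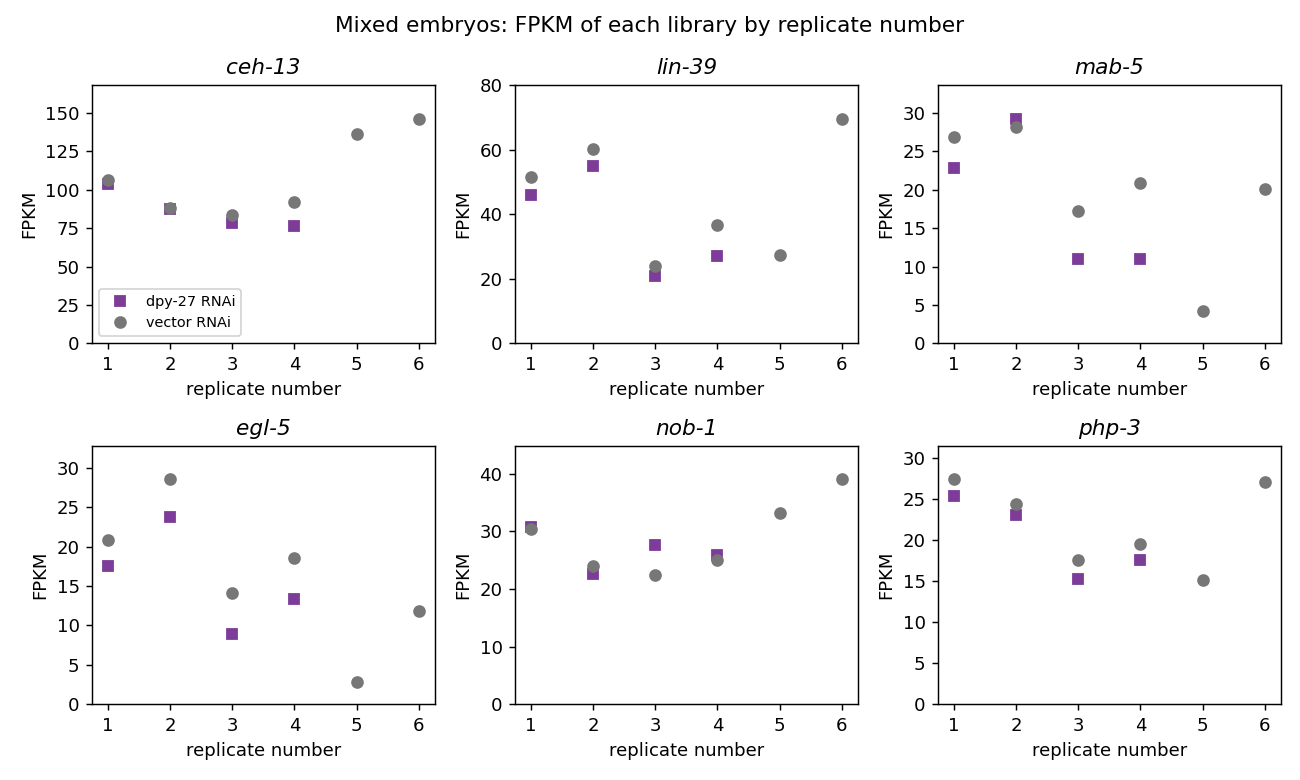
FPKM of the 6 Hox genes in each mixed embryo library after *dpy-27* RNAi (squares, replicates 1 to 4) and with the empty vector (circles, replicates 1 to 6), placed by replicate number. Libraries of the same number lay close together, as for *egl-5* in replicate 2 (23.7 FPKM after RNAi, 28.5 FPKM with the vector) and replicate 3 (8.94 FPKM after RNAi, 14.0 FPKM with the vector).

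In L3 larvae (n = 4 each), where the *dpy-27* RNA itself was not lower after RNAi, 0 of 6 genes passed in limma and 0 at an unadjusted p under 0.05, beside 0.0313% of 12791 genes. *egl-5* had 6.65, 8.70, 5.86 and 8.97 FPKM after RNAi against 7.52, 8.13, 9.66 and 11.2 FPKM with the vector, *nob-1* 6.75, 9.07, 9.82 and 10.7 FPKM against 10.3, 10.9, 10.3 and 12.1 FPKM, and *php-3* 11.4, 11.7, 16.7 and 12.2 FPKM against 13.7, 16.6, 13.5 and 19.5 FPKM. The 3 Abdominal-B type genes had log2 ratios of -0.33, -0.33 and -0.34, with 95% intervals of -0.79 to 0.13, -0.75 to 0.09 and -0.80 to 0.13. *ceh-13*, *lin-39* and *mab-5* had log2 ratios of -0.05, 0.13 and -0.11. The RNAi effect did not pass the test of a difference between L3 larvae and mixed embryos in any of the 6 genes in limma, nor at an unadjusted p under 0.05, beside 0% of 13489 genes.

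Mixed embryos labelled *dpy-21(e428)* and *set-4(n4600)* (n = 4 each) were compared with each other, although the *set-4* level went against the label in 1 library of each group, *dpy-21(e428)* replicate 3 and *set-4(n4600)* replicate 2. Of the 6 genes 0 passed in limma and 0 at an unadjusted p under 0.05, beside 0% of 12938 genes, and the log2 ratios ran from -0.12 to 0.01. With both of those libraries left out, 0.0313% of 12767 genes were called and no Hox gene was among them (limma adjusted p = 0.9999 for each), with log2 ratios of -0.11 ± 0.75 for *lin-39*, -0.06 ± 0.55 for *ceh-13* and -0.25 ± 0.28 for *mab-5* (SE). In replicates 1 to 4, *lin-39* had 41.5, 166, 38.4 and 54.3 FPKM in embryos labelled *dpy-21(e428)* and 144, 46.5, 50.9 and 62.2 FPKM in embryos labelled *set-4(n4600)*. *ceh-13* had 104, 154, 60.4 and 110 FPKM in embryos labelled *dpy-21(e428)* and 226, 83.2, 85.6 and 99.3 FPKM in embryos labelled *set-4(n4600)*. In each labelled group 1 library stood far above the rest, *dpy-21(e428)* replicate 2 and *set-4(n4600)* replicate 1, and with these high libraries left out instead the log2 ratios were -0.25 ± 0.23 for *lin-39* and 0.00 ± 0.25 for *ceh-13* (SE).

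The other genes did not single out these libraries to the same extent, although *nob-1* and *php-3* were highest within the libraries labelled *set-4(n4600)* in replicate 1. By label, *mab-5* was at 16.6 to 23.7 FPKM in *dpy-21(e428)* and 19.6 to 30.1 FPKM in *set-4(n4600)* embryos, and *egl-5* was at 22.3 to 24.6 FPKM in *dpy-21(e428)* and 20.8 to 27 FPKM in *set-4(n4600)* embryos. *nob-1* was at 19 to 37.3 FPKM in *dpy-21(e428)* and 24.5 to 38 FPKM in *set-4(n4600)* embryos, and *php-3* at 23.7 to 35.8 FPKM in *dpy-21(e428)* and 23.7 to 40.8 FPKM in *set-4(n4600)* embryos. In *egl-5* the 95% interval of the log2 ratio was -0.48 to 0.51. The body muscle sum was lowest in the same 2 libraries, 2421 FPKM in *dpy-21(e428)* replicate 2 and 1147 FPKM in *set-4(n4600)* replicate 1, and its part in their *lin-39* and *ceh-13* levels was not tested.

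The L3 larvae of *dpy-21(e428)* and *set-4(n4600)* were set against a second collection of N2 L3 larvae (n = 4 each). In *dpy-21(e428)* larvae 0 of 6 genes passed in limma and 0 at an unadjusted p under 0.05, beside 6.96% of 12614 genes, with log2 ratios of -0.26 to 0.17. *egl-5* had 13.6, 19, 16.2 and 11.8 FPKM in *dpy-21(e428)* larvae against 18.2, 19.5, 16.3 and 9.18 FPKM in these N2 larvae (log2 ratio -0.10, 95% interval -0.52 to 0.32). *mab-5* had 14.5, 13.3, 15.2 and 13.2 FPKM in *dpy-21(e428)* larvae against 10.5, 16.5, 13.4 and 8.47 FPKM in N2 (log2 ratio 0.17, 95% interval -0.16 to 0.51). The mutant libraries lay inside or near the range of the N2 libraries in both genes.

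The choice of N2 collection decided this result. Against the first N2 L3 collection 4 of the 6 genes passed, all higher in *dpy-21(e428)*, beside 43.2% of 12651 genes called: *egl-5* with a log2 ratio of 1.31 ± 0.18, *nob-1* with 0.73 ± 0.20, *ceh-13* with 0.39 ± 0.10 and *mab-5* with 0.38 ± 0.11 (SE, limma adjusted p = 0.00146, 0.02, 0.0156 and 0.0241). The N2 collections themselves differed, with 9.18 to 19.5 FPKM of *egl-5* in the second and 5.77 to 7.39 FPKM in the first, and 5.33 to 18.5 FPKM of *nob-1* in the second and 5.05 to 7.46 FPKM in the first. The germline marker sum was 66.5 to 92.9 FPKM in the second and 188 to 224 FPKM in the first N2 collection, and 72.4 to 96.7 FPKM in the *dpy-21(e428)* larvae; its part in the difference was not tested.

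In *set-4(n4600)* L3 larvae, where *set-4* was at 0 to 0.895 FPKM against 7.96 to 11.2 FPKM in N2, 0 of 6 genes passed in limma and 0 at an unadjusted p under 0.05, beside 0.00801% of 12489 genes. *egl-5* had 9.03, 19.7, 12.7 and 8.28 FPKM in *set-4(n4600)* larvae (log2 ratio -0.37, 95% interval -0.93 to 0.20). The log2 ratios of the other genes were -0.39 for *ceh-13*, -0.31 for *lin-39*, -0.26 for *nob-1*, -0.10 for *mab-5* and -0.05 for *php-3*. *ceh-13* had 11.2, 22.6, 18.5 and 14.9 FPKM in *set-4(n4600)* larvae against 19.2, 31.3, 21 and 16.9 FPKM in N2, in the order of the replicate numbers, and was lower in 4 of 4 numbered pairs. The share of all genes lower in every pair was not counted. Same-numbered libraries of these groups deviated together, and with the number as a block the log2 ratio of *ceh-13* was -0.39 ± 0.13 (SE, limma adjusted p = 0.349), and it did not pass in that fit either. Between the mutants, *dpy-21(e428)* minus *set-4(n4600)*, 0 of 6 genes passed in limma and 0 at an unadjusted p under 0.05, beside 6.59% of 12612 genes, and the log2 ratios were -0.06 to 0.26. All 6 genes overlapped between every pair of these L3 groups.

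The L1 libraries with added *C. briggsae* larvae gave an independent look at *set-4(n4600)* on a scale set by the number of animals (n = 3 each). These files held 1533531 to 3215078 *C. elegans* gene counts and 129184 to 331898 *C. briggsae* gene counts per library, and *set-4* had 1 count in each mutant library against 43, 59 and 72 counts in N2. Of the Hox genes, *php-3* had 52, 82 and 114 counts in *set-4(n4600)* larvae and 49, 53 and 87 counts in N2, and *nob-1* had 39, 62 and 44 counts in *set-4(n4600)* larvae and 26, 13 and 30 counts in N2. Scaled to the spike-in, *nob-1* was at 16.2, 18 and 12.5 in *set-4(n4600)* larvae and at 18.6, 7.32 and 9.64 in N2 (CPM on spike-in-scaled library sizes), and the groups overlapped through N2 replicate 1. Its log2 ratio was 0.45 ± 0.33 (SE, edgeR adjusted p = 0.329), and 0.84 without that library (edgeR adjusted p = 0.0385).

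With all 6 spike-in libraries 0 of 6 genes passed in edgeR and 0 at an unadjusted p under 0.05, and 0 passed in DESeq2, beside 23.9% of 10080 genes in edgeR. *egl-5* was the rarest, with 17, 19 and 26 counts in *set-4(n4600)* larvae and 7, 22 and 16 counts in N2, so that its log2 ratio of -0.15 had an SE of 0.41. *ceh-13* (-0.09), *lin-39* (0.10), *mab-5* (-0.18) and *php-3* (-0.23) also stayed near 0, beside a median of -0.18 over all genes.

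Loss of *set-1* was examined in larvae whose labels give the L2 stage, while the column headers name L3. The study calls them L3 larvae, and they were listed with the same feeding time as the L3 groups. The heterozygous columns were identified only as those without the word homozygous. Of the 6 genes 0 passed in limma and 1 had an unadjusted p under 0.05, beside 0.0156% of 12855 genes at the adjusted and 16.7% at the unadjusted threshold (n = 3 each). That gene was *egl-5*, with 7.89, 7.89 and 7.61 FPKM in homozygous against 15.5, 9.87 and 12.4 FPKM in heterozygous larvae. The homozygous libraries were all lower, and the log2 ratio was -0.61 ± 0.19 (SE, limma adjusted p = 0.199). *mab-5* (12.7, 9.95 and 13 FPKM in homozygous against 14.4, 13.5 and 14.2 FPKM in heterozygous larvae) also did not overlap, with a log2 ratio of -0.19 ± 0.15 (SE, limma adjusted p = 0.571). The number of all genes without overlap between these genotypes was not counted. *set-1* RNA was at 20.3 to 24.9 FPKM in homozygous and 24.2 to 26.4 FPKM in heterozygous larvae, so the label could not be checked by its level. *ceh-13* (19.8 to 24.7 FPKM in homozygous, 23.6 to 28.6 FPKM in heterozygous larvae), *lin-39* (16.9 to 22.2 and 20.3 to 22.3 FPKM), *nob-1* (10.1 to 11.1 and 9.30 to 10.5 FPKM) and *php-3* (13 to 16 and 13.7 to 15.3 FPKM) overlapped between the genotypes, and their log2 ratios were -0.14 to 0.15.

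**Figure D5:**
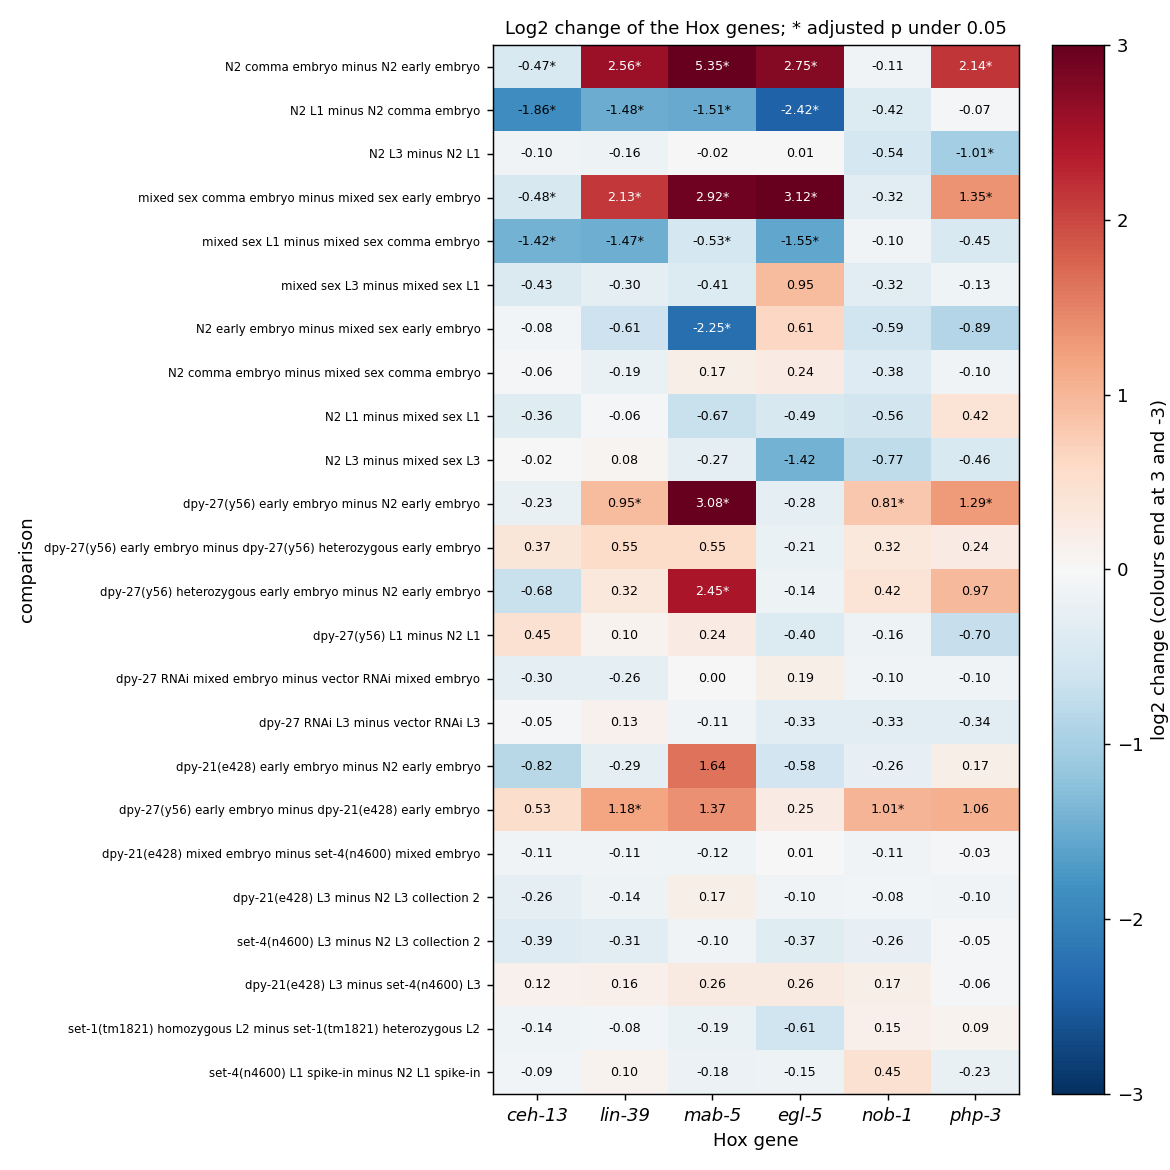
Log2 ratios of the 6 Hox genes in every comparison between groups, with a star at an adjusted p under 0.05; red is higher and blue lower in the group named first, and the colours end at 3 and -3. The stars gather in the stage comparisons and in the early embryo comparisons, as for *mab-5* at 5.35 in N2 comma against early embryos, and none stands in the RNAi, mixed embryo, L3 genotype, *set-1* or spike-in comparisons.

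Finally, each Hox gene was compared with the genes whose pattern over the 23 group means was most like it, by the correlation of log2 values among 13642 genes with a mean above 1 FPKM. The group means share libraries' depth, stage and composition, so these values describe the pattern only. *mab-5* had the closest matches, *efn-2*, an ephrin, with r = 0.992 and *egl-44*, a TEA domain factor, with r = 0.981. For *ceh-13* the closest were *pup-2* (r = 0.973) and C07D10.5 (r = 0.971), for *lin-39* C46F11.6 (r = 0.965) and *hlh-6* (r = 0.962), and for *php-3* *dyf-5* (r = 0.955) and *hst-3.1* (r = 0.953). *egl-5* was most like *unc-11* (r = 0.930) and *nob-1* most like ZK632.7 (r = 0.926). Among the Hox genes themselves *ceh-13* and *nob-1* (r = 0.902) and *lin-39* and *php-3* (r = 0.893) were most alike, while the adjacent genes *ceh-13* and *lin-39* had r = 0.464 and *ceh-13* and *mab-5* r = -0.08.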

How the data were processed

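The authors made stranded mRNA-seq libraries from whole worms or embryos, aligned reads to the WS220 genome with TopHat and computed FPKM with Cufflinks; the submitters' processing notes name TopHat2 2.0.11, Cufflinks 2.2.0 and HTSeq 0.6.0. The deposited FPKM table was used as it is, except for 13 per-sample columns that match no sample here. The authors counted the spike-in libraries per gene with htseq-count, and these counts were used as deposited; their summary lines, 24.5% to 26.9% of the *C. briggsae* table, were left out. FPKM were scaled by median of ratios, transformed as log2(FPKM + 0.1) and tested in limma 3.58.1 (R 4.3.3) over genes averaging more than 1 FPKM across the compared groups, with the libraries of the compared groups only. The study tested with DESeq2, which needs counts and so was not used on FPKM. Spike-in counts were tested with edgeR 4.0.16 (quasi-likelihood), over genes with a mean of 10 counts, with library sizes from TMM over the *C. briggsae* counts; DESeq2 1.42.0 was an alternative. Adjustment was by Benjamini-Hochberg over all genes tested, at 0.05, and errors are SE unless named.

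The 6 genes were named throughout; of the 4 gene lists (cofactors, Polycomb and trithorax type regulators, upstream and downstream genes), at most 3 genes a comparison with the largest change past the threshold were named, and for each Hox gene those with the most similar pattern over groups. The members and lists were chosen with earlier results of these data known. Labels do not say that a replicate number marks a shared day. Same-numbered libraries deviated together (every correlation over 0.1) for *dpy-27* RNAi in mixed embryos (0.52 to 0.91) and L3 larvae (0.14 to 0.63), *dpy-21(e428)* early embryos with N2 (0.16 to 0.22), *set-4(n4600)* L3 with N2 (0.26 to 0.70) and *set-1(tm1821)* (0.10 to 0.39). Alternatives were a pseudocount of 1 FPKM, no filter, no scaling, a replicate block, the other N2 L3 collection, the shared L1 library kept, and each library left out in turn. The tests were tested on simulated data. Depth is not given for the FPKM table beyond relative steps, and p-values set a difference between groups against the spread between libraries.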

Additional observations from a re-analysis of the deposited data

Results flagged for a closer look

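Of 54 gene and group combinations with 4 to 10 libraries, 6 held a library far from the others of its group by Dixon's criterion at the 95% level, which chance alone would give in about 5% of combinations. These were *lin-39* at 166.3 FPKM in *dpy-21(e428)* mixed embryo replicate 2 and at 143.6 FPKM in *set-4(n4600)* mixed embryo replicate 1, *ceh-13* at 226.1 FPKM in the same *set-4(n4600)* library, *ceh-13* at 36.09 FPKM and *lin-39* at 43.05 FPKM in *dpy-27* RNAi L3 replicate 4, and *php-3* at 16.68 FPKM in *dpy-27* RNAi L3 replicate 3. In 5 of the 6 the gene was *ceh-13* or *lin-39*. Both were flagged in the same *set-4(n4600)* library and in the same *dpy-27* RNAi L3 library, so the 6 are not independent of each other. The rise of *mab-5* between early and comma embryos differed between N2 and the mixed sex population by 2.442 on the log2 scale in the interaction test, where it was 5.35 in N2 and 2.92 in the mixed sex population.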

How the results depend on the processing

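Of the 28 gene calls over 28 comparisons, 18 held under every alternative run and 10 were lost under some. Of 1914 alternatives for single genes, 1843 kept their side of the threshold, 45 lost a call and 23 gained one. A further 3 reversed with a call in the main or the alternative fit. A change of sign without a call in either fit was not counted as a reversal. The reversed values were those of *dpy-21(e428)* L3 larvae set against the first N2 L3 collection, 0.39 for *ceh-13*, 1.31 for *egl-5* and 0.73 for *nob-1*, where 4 of 6 genes passed. Without scaling the number of Hox genes called became 2 for mixed sex L3 minus L1, 2 for N2 minus mixed sex early embryos, 1 for *dpy-21(e428)* minus N2 early embryos and 4 for *dpy-27(y56)* minus *dpy-21(e428)* early embryos. Single calls lost without changing the count by as much were *ceh-13* in N2 comma minus early embryos without scaling (-0.43) and *nob-1* in *dpy-27(y56)* minus N2 early embryos without the filter (0.75). Without the filter the number became 0 for heterozygous *dpy-27(y56)* minus N2 and 0 for *dpy-27(y56)* minus *dpy-21(e428)* early embryos. With the replicate block it became 0 for N2 L3 minus L1, 1 for mixed sex L3 minus L1 (*egl-5*, 1.61), 0 for heterozygous *dpy-27(y56)* minus N2, 1 for *dpy-21(e428)* minus N2 early embryos and 0 for *dpy-27(y56)* minus *dpy-21(e428)* early embryos; *mab-5* in mixed sex L1 minus comma was lost too (-0.47). The block changed 7 of 138 gene calls and no other. Only where same-numbered libraries deviated together does it bear on a result; elsewhere they share a number alone. Leaving out each library in turn gave 0 to 1 calls for N2 L3 minus L1, 0 to 1 for mixed sex L3 minus L1, 0 to 2 for N2 minus mixed sex early embryos, 0 to 1 for N2 minus mixed sex L3, 2 to 4 for *dpy-27(y56)* minus N2 early embryos, 0 to 2 for heterozygous embryos minus N2, 0 to 3 for *dpy-21(e428)* minus N2 early embryos, 0 to 2 for *dpy-27(y56)* minus *dpy-21(e428)* early embryos, 1 to 2 for the difference of the early to comma change and 0 to 1 for the spike-in libraries. The share of all genes called was not counted in the fits with a single library left out. Except for the fits with fewer libraries, the cause of these shifts was not tested. The alternatives that kept vector replicates 5 and 6 out, both high mixed embryo libraries, or both mixed embryo libraries whose *set-4* level went against the label, were chosen after seeing the data and gave 0 calls. Groups of 2 or 3 libraries and the shallow *dpy-27(y56)* libraries limit what could be detected.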

Other observations

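The balance of the posterior pair was looked at as the log2 ratio of *nob-1* to *php-3* FPKM in each library, chosen after the values were seen and so given as a description, with no test. It was -0.75 ± 0.31 in comma embryos and 1.22 ± 0.30 in early embryos (SD, n = 6 each, N2 and mixed sex together), a difference of -1.97. Within N2 the difference was -2.27 and within the mixed sex population -1.68. From comma embryos to L3 larvae the ratio moved by 0.14. *nob-1* exceeded *php-3* in all early embryo libraries of every genotype, by 0.38 to 1.63 on the log2 scale, and *php-3* exceeded *nob-1* in every comma embryo and larval library apart from 1 N2 L3 library of the second collection (0.03). In mixed embryos the ratio lay between, from -0.44 to 1.12, with the highest value in vector replicate 5, the one with the lowest body muscle sum among them.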
